A study of Mus musculus with 12 samples.

Results

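The mitochondrial ribosomal protein genes are the 78 genes, of 57180 in the deposited gene table, whose symbol starts with Mrpl or Mrps followed by a digit and is not marked as a pseudogene (-ps). The rule used names alone and no measured value. Their products, with rRNA encoded by the mitochondrial genome, form the mitoribosome, which translates the few mRNAs of that genome into core subunits of the respiratory chain and ATP synthase. The Mrpl and Mrps proteins are encoded in the nucleus, made on cytosolic ribosomes and imported. Some descend from proteins of the bacterial ribosome, others have no bacterial counterpart, and a few have a name that no longer matches their place.

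By its place in the mammalian mitoribosome, 26 of the genes encode proteins of the small subunit and 51 encode proteins of the large subunit. Mrps18a and Mrps30 count among the large subunit in spite of their names, and Mrps36 (Kgd4) encodes a component of the 2-oxoglutarate dehydrogenase complex, not of the mitoribosome. Of the 77 mitoribosome genes, 46 carry the family name of a bacterial ribosomal protein (u or b) and 31 a mitochondria-specific name (m). The split is by name, so Mrps18a (mL66) and Mrps18b (mS40), paralogs of the bacterial S18 protein, count among the 31.

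RNA was sequenced from an E14 mouse ESC line, male and on a 129/Ola background, in which DOX induces a CRISPR interference repressor that guide RNAs bring to a start site (E14 DOX-CRISPRi). Both lines compared here descend from 1 clone of that parent, and both are kept under puromycin, blasticidin and hygromycin. Neg cells carry scramble guide RNAs, and 3×KD cells carry guide RNAs against Pcx (pyruvate carboxylase) and the malic enzymes Me1 and Me2. Each line was taken as naive ESCs in 2iLIF and as EpiLCs after 2 days in FAX medium, with 3 libraries in each of 4 groups (Neg ESCs, 3×KD ESCs, Neg EpiLCs and 3×KD EpiLCs). Guide RNAs were integrated with a piggyBac vector. The study describes these groups as treated with DOX, which the sample labels do not name. The comparisons set the 3×KD line against the Neg line in each state, and EpiLCs against ESCs in each line. With 1 line for each set of guide RNAs, repression of the 3 enzymes and other differences between the lines cannot be told apart.

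Levels are given as CPM after TMM scaling, which sets each count against the size of its library times a scaling factor. Differences are given as log2 fold changes with their SE. The test was the quasi-likelihood test of edgeR, with p adjusted over the 25446 genes tested (Benjamini-Hochberg). A gene is said to have risen, fallen or changed where this adjusted p was under 0.01, and to have passed both limits where the log2 fold change was also beyond 0.58 in size. Totals lay between 11221023 and 19652197 estimated counts per library, and all 78 genes were tested, the shallowest (Mrpl41) on 1459 counts in all. Pcx was at 35.7 to 36.8 CPM in Neg ESCs against 16.2 to 16.8 in 3×KD ESCs, and at 46.7 to 57.0 in Neg EpiLCs against 23.6 to 25.6 in 3×KD EpiLCs. Me1 and Me2 were likewise lower in every 3×KD library, by -0.89 and -0.95 in ESCs and -1.05 and -0.98 in EpiLCs on the log2 scale. The start site of Mrpl11 lies 451.7 kb from that of Pcx, Mrps22 lies 11905.6 kb from Me1, and none of the 78 genes shares a chromosome with Me2.

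The 8 naive markers (among them Nanog, Esrrb and Klf4) summed to 5100 to 5260 CPM in Neg ESCs and 3990 to 4060 in 3×KD ESCs, and stood at 308 to 322 in Neg EpiLCs and 454 to 469 in 3×KD EpiLCs. The 5 formative markers (among them Fgf5, Otx2 and Pou3f1) summed to 231 to 242 in Neg ESCs and 268 to 274 in 3×KD ESCs, against 2700 to 3030 in Neg EpiLCs and 1600 to 1650 in 3×KD EpiLCs. The labelled states thus carried their markers, but the lines differed in marker levels within each state. Summed levels of the 4 fibroblast markers (3.51 to 8.62 CPM), the 5 primitive endoderm markers (17.6 to 30.0), the 4 trophoblast markers (4.11 to 53.7) and the 3 mesendoderm markers (18.8 to 29.4) were low beside them in all libraries, and Pou5f1 and Sox2 summed to 725 to 991. Their part in the values of the mitoribosome genes was not tested. The labels give replicate numbers and do not say what separates replicates, so p-values measure the spread between these libraries. In bulk RNA, fewer cells of a type and less RNA per cell cannot be told apart.

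Mean levels of the 78 mRNAs over the 12 libraries ran from 7.79 to 108 CPM. On the per-length TPM scale, the median of the 78 genes was 32.0 (Neg) and 27.2 (3×KD) in ESCs, and 37.7 (Neg) and 28.1 (3×KD) in EpiLCs. The highest mean TPM belonged to Mrpl18 (166.8), Mrpl17 (133.5), Mrpl15 (109.5) and Mrps21 (99.8). The lowest belonged to Mrpl41 (9.93), Mrpl1 (10.7), Mrps6 (11.8) and Mrpl16 (13.7). TPM of single genes moved between libraries of a group with the share taken by short noncoding RNAs such as Rn7s1, so that Mrpl18 stood at 155.7 ± 39.5 TPM in Neg ESCs but at 57.2 ± 1.72 CPM (SD, n = 3), and the comparisons between groups rest on CPM.

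Summed over the 78 genes, which include Mrps36, mRNA was lower in both 3×KD groups than in the matching Neg group. Neg ESCs held 3202, 3179 and 3158 CPM and 3×KD ESCs 2927, 2935 and 2921 CPM. Neg EpiLCs held 3491, 3305 and 3379 CPM and 3×KD EpiLCs 2776, 2796 and 2896 CPM. By CPM the Neg and 3×KD libraries did not overlap in either state, and the 3×KD mean was 0.921 of the Neg mean in ESCs and 0.832 in EpiLCs. The ratio of summed TPM was 0.891 and 0.752, with 2567.5 to 3524.9 TPM in Neg against 2282.8 to 2757.7 in 3×KD in ESCs, which overlap, and 3508.2 to 3763.2 against 2486.1 to 3095.9 in EpiLCs, which do not, and the ratio of the share of protein-coding TPM, a measure chosen after seeing the data, 0.903 and 0.853. In ESCs small-subunit mRNA stood at 0.4596 ± 0.0054 of large-subunit mRNA in the Neg line and 0.4352 ± 0.0045 in the 3×KD line (SD, n = 3, summed CPM). In EpiLCs the ratios were 0.4375 ± 0.0014 and 0.4242 ± 0.0047. The ratio was lower in every 3×KD library than in any Neg library of its state, at 0.4301 to 0.4385 against 0.4539 to 0.4647 in ESCs and 0.4193 to 0.4287 against 0.4361 to 0.4389 in EpiLCs. Abundant genes weigh most in such sums. By count of genes the subunits were alike, with 30.8% of small-subunit and 31.4% of large-subunit genes fallen in 3×KD ESCs, and 50% and 51% in EpiLCs. These sums over the list were not tested.

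**Figure D1:**
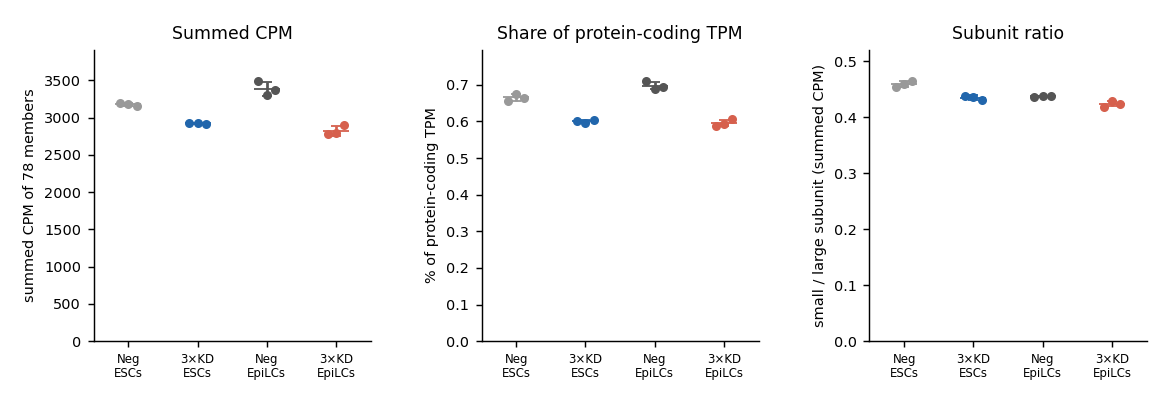
Level of the 78 mitochondrial ribosomal protein mRNAs by library (dots, with the mean and SD of 3 libraries): summed CPM, percent of all protein-coding TPM, and the summed CPM of the small subunit over that of the large subunit. In all 3 panels every 3×KD library lies below the Neg libraries of its state, and the share of protein-coding TPM averages 0.6655% (Neg) and 0.6011% (3×KD) in ESCs and 0.6982% (Neg) and 0.5956% (3×KD) in EpiLCs.

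In ESCs, repression of Pcx, Me1 and Me2 went with lower mRNA for a set of ribosomal proteins of both subunits, led by Mrps11, Mrpl20, Mrps7 and Mrpl46, and with higher mRNA for a smaller set led by Mrps16, Mrpl14 and Mrpl24. Of the 78 genes 24 fell (30.8%) and 8 rose (10.3%), against 16% of all genes tested that fell and 15.6% that rose. Among the 8168 genes tested in the same CPM range, which have similar power, 32.2% fell and 26.6% rose. The share that fell was therefore close to that background, and the share that rose was below it. The median log2 fold change of the 78 genes was -0.13, beside 0.03 for all genes tested and -0.04 in the CPM range, and 55 of the 78 lay below 0. In 39 genes every 3×KD library was below every Neg library (23.8% of all genes tested, 40% in the CPM range) and in 11 every one was above (25.2% and 34%). Where transcript-length offsets were used in the fit, 11 fell and 5 rose and the median was -0.07, beside 7.98% and 9.27% of all genes tested in that fit. The study imported its transcript estimates with tximport and does not say whether length offsets entered its own fit.

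Mrps11 and Mrpl46 are neighbours on chromosome 7 that are transcribed away from each other, Mrps11 (uS11m, on the platform of the small subunit) from the plus strand at chr7:78432867-78442739 and Mrpl46 (mL46, a mitochondria-specific large-subunit protein) from the minus strand at chr7:78424922-78433279. Their annotated start sites are 30 bp apart, and the stretch between them is shown because both genes fell in both states. It is given from GRCm39 on the plus strand, chr7:78432838-78432866, in lower case since it held none of the motifs searched below, and the annotated extent of Mrpl46 runs past it.
Mrpl46-Mrps11: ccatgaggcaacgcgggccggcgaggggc

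Mrps11 was at 25.3, 24.8 and 25.2 CPM in Neg ESCs and at 13.6, 15.7 and 14.2 in 3×KD ESCs, a log2 fold change of -0.79 ± 0.07 (SE, edgeR adjusted p = 8e-08). Mrpl46 was at 33.8, 33.1 and 33.9 CPM in Neg ESCs and at 22.2, 22.6 and 22.3 in 3×KD ESCs (-0.58 ± 0.06, edgeR adjusted p = 2.6e-07). Both were lower in all 3 3×KD libraries by several times the spread within a group. Mrps7 (uS7m, in the head of the small subunit) was at 57.3, 58.5 and 56.0 CPM against 37.2, 38.8 and 38.3 (-0.59 ± 0.05, edgeR adjusted p = 4.4e-08). Mrpl20 (bL20m, an early-binding large-subunit protein in bacteria) was at 19.8, 19.1 and 18.9 CPM against 12.8, 12.99 and 11.1 (-0.65 ± 0.09, edgeR adjusted p = 2.6e-05). These 4 passed both limits, beside 6.78% of all genes tested and 11.2% in the CPM range that passed both and were lower. None passed both and was higher, beside 8.5% of all genes tested (Mrpl24 and Mrpl14 did with transcript-length offsets, Mrpl14 and Mrps16 without replicate 1 of 3×KD ESCs). DESeq2 gave 6 that rose and 22 that fell, beside 15.2% and 16% of all genes tested in that fit. With edgeR 10 genes were higher and 38 lower at an unadjusted p under 0.05. No share over all genes is given for that limit, here or below, so these counts have no background.

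Mrps2 (uS2m) lay just outside the fold limit at -0.58 ± 0.04, with 105, 117 and 113 CPM in Neg ESCs and 71.9, 75.2 and 77.6 in 3×KD ESCs, and passed it with DESeq2. Mrpl46 and Mrps7 lay just inside and dropped out with upper-quartile factors, which left 2 of the 4, as did the fit with no filter and the fit without replicate 1 of 3×KD ESCs. A gene's side of the fold limit was thus not firm, whereas Mrps11, Mrpl20, Mrps7, Mrpl46 and Mrps2 had an adjusted p under 0.01 in all 21 refits (other scalings, filters and tools, and each library left out). Mrpl44 (mL44, of an RNase III fold) was at 66.7, 60.1 and 62.5 CPM in Neg ESCs and 42.1, 44.4 and 45.9 in 3×KD ESCs (-0.51 ± 0.05). Mrps22 (mS22, mitochondria-specific) was at 34.0, 31.3 and 35.2 CPM against 22.5, 25.7 and 23.6 (-0.48 ± 0.07). In both genes the lowest Neg library was above the highest 3×KD library.

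The 8 that rose in 3×KD ESCs did so by 0.28 to 0.55. Mrpl24 (uL24m, an assembly-initiating protein in bacteria) was at 43.5, 40.5 and 41.5 CPM in Neg ESCs and at 58.4, 61.5 and 57.9 in 3×KD ESCs (0.50 ± 0.05, edgeR adjusted p = 7.5e-07). Mrps16 (bS16m) was at 24.6, 22.2 and 24.3 CPM against 31.6, 38.4 and 33.8 (0.55 ± 0.10, edgeR adjusted p = 2.3e-04). Mrpl14 (uL14m, which faces the small subunit) was at 11.1, 10.6 and 9.89 CPM against 15.1, 15.4 and 15.5 (0.55 ± 0.10, edgeR adjusted p = 3.6e-04). All 3 had every 3×KD library above every Neg library and an adjusted p under 0.01 in all 21 refits, as had Mrps24 (0.32) and Mrps10 (0.29). Mrps6 (0.41), Mrpl40 (0.31) and Mrpl48 (0.28) rose too, but not in every refit. Mrps6 and Mrpl40 lie on chromosome 16, whose 454 genes with at least 1 CPM had a median of 0.30 in 3×KD against Neg in both states, where no other chromosome had a median above 0.064 in either state. Mrpl39, the other of the 78 on that chromosome, was at 0.00 ± 0.05 in ESCs and fell in EpiLCs (-0.22 ± 0.05, edgeR adjusted p = 0.0012). The part of the chromosome's shift in these values was not tested.

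In EpiLCs, too, genes of both subunits fell, led by Mrpl46, Mrps11, Mrpl49 and Mrps22, and Mrpl24 led the few that rose. Of the 78 genes 39 fell (50%) and 4 rose (5.13%), against 15.6% and 14.3% of all genes tested and 30.6% and 26.4% in the CPM range. The median was -0.26, beside 0.03 for all genes tested and -0.03 in the CPM range, and 60 of the 78 lay below 0. In 53 genes the 3×KD libraries were all below the Neg libraries (23.1% of all genes tested, 39% in the CPM range) and in 5 all above (24.1% and 33.2%). The fall covered both subunits, with 13 of 26 small-subunit and 26 of 51 large-subunit genes. It also covered both classes of name, with 21 of the 46 genes with a bacterial family name and 18 of the 31 with a mitochondria-specific name. In ESCs the same counts were 8 of 26, 16 of 51, 13 of 46 and 11 of 31. With transcript-length offsets 28 fell and 1 rose in EpiLCs, beside 8.21% and 7.44% of all genes tested in that fit, and 28 had an adjusted p under 0.01 in all 21 refits.

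Mrpl46 fell most, from 42.4, 39.4 and 38.6 CPM in Neg EpiLCs to 22.6, 24.4 and 24.2 in 3×KD EpiLCs (-0.76 ± 0.05, edgeR adjusted p = 1.1e-08). Its neighbour Mrps11 fell from 22.8, 24.6 and 22.8 CPM to 14.6, 14.7 and 15.2 (-0.66 ± 0.07, edgeR adjusted p = 6.8e-07). Both genes of the pair were again clear of overlap. Mrps22 fell from 40.0, 41.5 and 41.0 CPM to 24.3, 28.6 and 26.5 (-0.63 ± 0.07, edgeR adjusted p = 1.3e-06). Mrpl20 fell from 23.1, 21.6 and 21.9 CPM to 12.3, 15.9 and 15.5 (-0.61 ± 0.09, edgeR adjusted p = 3.7e-05), where replicate 1 of 3×KD EpiLCs was the lowest library and the value without it was -0.50. Mrps7 fell from 61.5, 60.7 and 63.9 CPM to 40.4, 39.2 and 43.6 (-0.60 ± 0.05, edgeR adjusted p = 3.5e-08). In all of them the lowest Neg library was above the highest 3×KD library.

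Mrpl49 (mL49, mitochondria-specific) showed the clearest dependence on the state. It was at 72.5, 74.5 and 73.6 CPM in Neg ESCs and at 60.8, 66.5 and 65.6 in 3×KD ESCs. In EpiLCs it was at 105, 95.1 and 98.7 CPM in Neg and at 61.1, 66.1 and 65.9 in 3×KD. The 3×KD levels were alike in both states, whereas the Neg level was higher in EpiLCs than in ESCs in every library. Its log2 fold change was -0.19 ± 0.05 in ESCs (edgeR adjusted p = 0.0037, lost with transcript-length offsets, where it was -0.04 with adjusted p = 0.76) and -0.63 ± 0.05 in EpiLCs (edgeR adjusted p = 1.9e-08). The 6 genes Mrpl46, Mrps11, Mrpl49, Mrps22, Mrpl20 and Mrps7 passed both limits in EpiLCs, beside 5.35% of all genes tested and 9.04% in the CPM range, and Mrpl19 (bL19m) lay just outside at -0.57 ± 0.04. With library sizes alone 2 of the 6, Mrpl46 and Mrps11, passed both. None was higher past both limits, beside 7.88% of all genes tested. In DESeq2 2 rose and 36 fell, beside 14.1% and 15.6% of all genes tested in that fit. At an unadjusted p under 0.05 in edgeR 6 genes were higher and 52 lower, without a share over all genes beside them.

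The start regions of Mrps22 and of Mrpl24 are shown as those of a gene that fell and of a gene that rose in both states. Each line gives the 100 bases before the annotated gene in GRCm39, read along the gene's own strand (Mrps22 from the minus strand at chr9:98483733-98483832, Mrpl24 from the plus strand at chr3:87826698-87826797), with capitals for an ETS motif.
Mrps22: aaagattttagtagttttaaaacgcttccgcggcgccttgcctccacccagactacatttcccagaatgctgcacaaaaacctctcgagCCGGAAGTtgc
Mrpl24: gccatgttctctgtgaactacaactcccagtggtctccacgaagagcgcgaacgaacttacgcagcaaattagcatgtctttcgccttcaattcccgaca

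The 4 genes that rose in EpiLCs were Mrpl24 (0.40 ± 0.05, edgeR adjusted p = 8.8e-06), Mrps12 (0.31), Mrpl40 (0.30) and Mrps24 (0.23). Mrpl24 was at 48.7, 54.0 and 54.9 CPM in Neg EpiLCs and 68.0, 67.5 and 71.9 in 3×KD EpiLCs, with no overlap. It was the one gene that rose in both states in all 21 refits. In EpiLCs the calls of Mrpl40 and Mrps24 held in 15 and 13 of the 21 refits. Both were lost with transcript-length offsets (edgeR adjusted p = 0.18 and 0.098). Mrpl40 lies on chromosome 16, whose median in EpiLCs was also 0.30, and the part of that shift was not tested. The value of Mrps12 lay between 0.27 and 0.61 over the 21 refits, but the call was lost with transcript-length offsets (0.61, adjusted p = 0.064), in DESeq2, in the fit of the 2 groups alone and without replicate 3 of 3×KD EpiLCs.

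**Figure D2:**
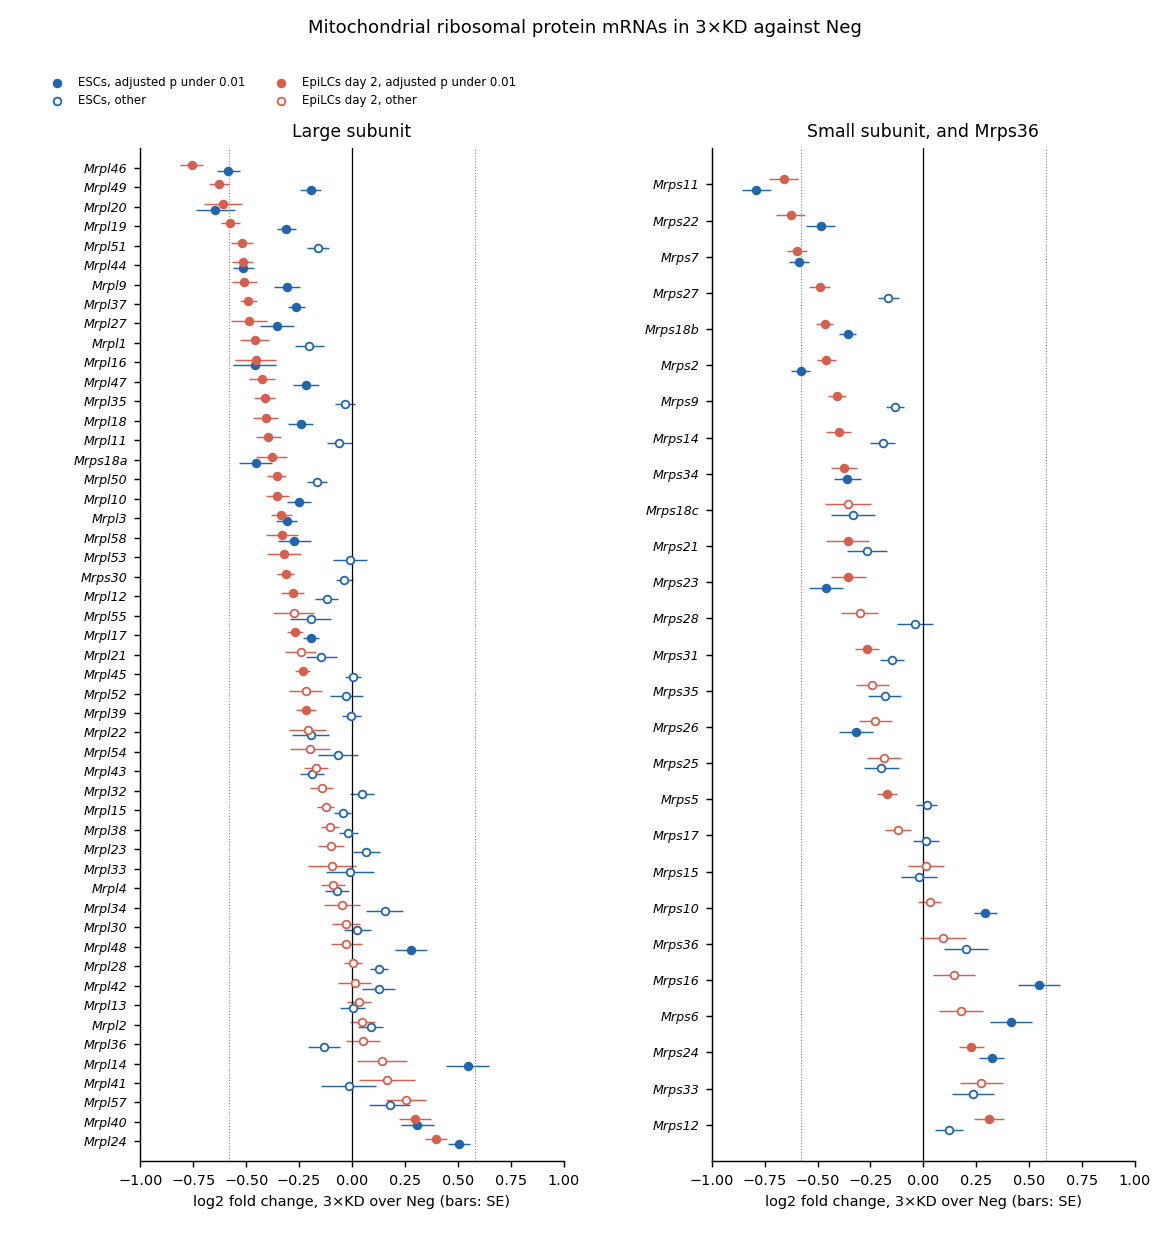
Log2 fold change of each of the 78 genes in 3×KD against Neg (x axis, bars: SE), in ESCs (blue) and EpiLCs day 2 (red). Filled points have an adjusted p under 0.01, and dotted lines mark a log2 fold change of 0.58 in either direction. Most points lie left of 0, and the EpiLC points of genes such as Mrpl49, Mrpl51, Mrps27 and Mrpl35 lie further left than their ESC points.

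The ESC and EpiLC comparisons share no library, so their lists can be set side by side. Both rest on the same Neg and 3×KD lines and on one fit, so the lists are not independent. Of the 24 genes that fell in ESCs, 23 (95.8%) also fell in EpiLCs, and these were 59% of the 39 that fell there. Over all genes tested the same shares were 65.4% and 67.2%, and in the CPM range 68.9% and 72.4%, and the difference from these shares was not tested. Of the genes that rose, 3 (Mrpl24, Mrpl40 and Mrps24) rose in both, 37.5% of the 8 in ESCs and 75% of the 4 in EpiLCs (61.6% and 67.2% over all genes tested). No gene changed in opposite directions, 52 were below 0 in both states and 15 above 0 in both. Across the 78 genes the 2 log2 fold changes had a Pearson r of 0.853 and a Spearman rho of 0.851, given as a description, since the points share libraries and one fit.

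A core of 11 genes fell in both states in all 21 refits, Mrps2, Mrps7, Mrps11, Mrps18b, Mrps22 and Mrps34 of the small subunit and Mrpl20, Mrpl37, Mrpl44, Mrpl46 and Mrps18a of the large subunit. With transcript-length offsets the genes that fell in both states were these 11 and no other. Mrpl37 (mL37), picked from these 11 after its values were seen, stood at 67.9, 72.0 and 70.6 CPM in Neg ESCs against 58.4, 59.4 and 57.7 in 3×KD ESCs, and at 76.0, 72.1 and 75.3 against 53.9, 54.3 and 51.0 in EpiLCs. Mrps34 (mS34) stood at 22.8, 21.7 and 23.2 CPM in Neg ESCs against 17.9, 18.2 and 16.7 in 3×KD ESCs, and at 33.0, 31.7 and 30.3 against 23.8, 24.1 and 25.4 in EpiLCs. Both were lower in every 3×KD library of either state, and Mrps34 was higher in EpiLCs than in ESCs in either line.

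**Figure D3:**
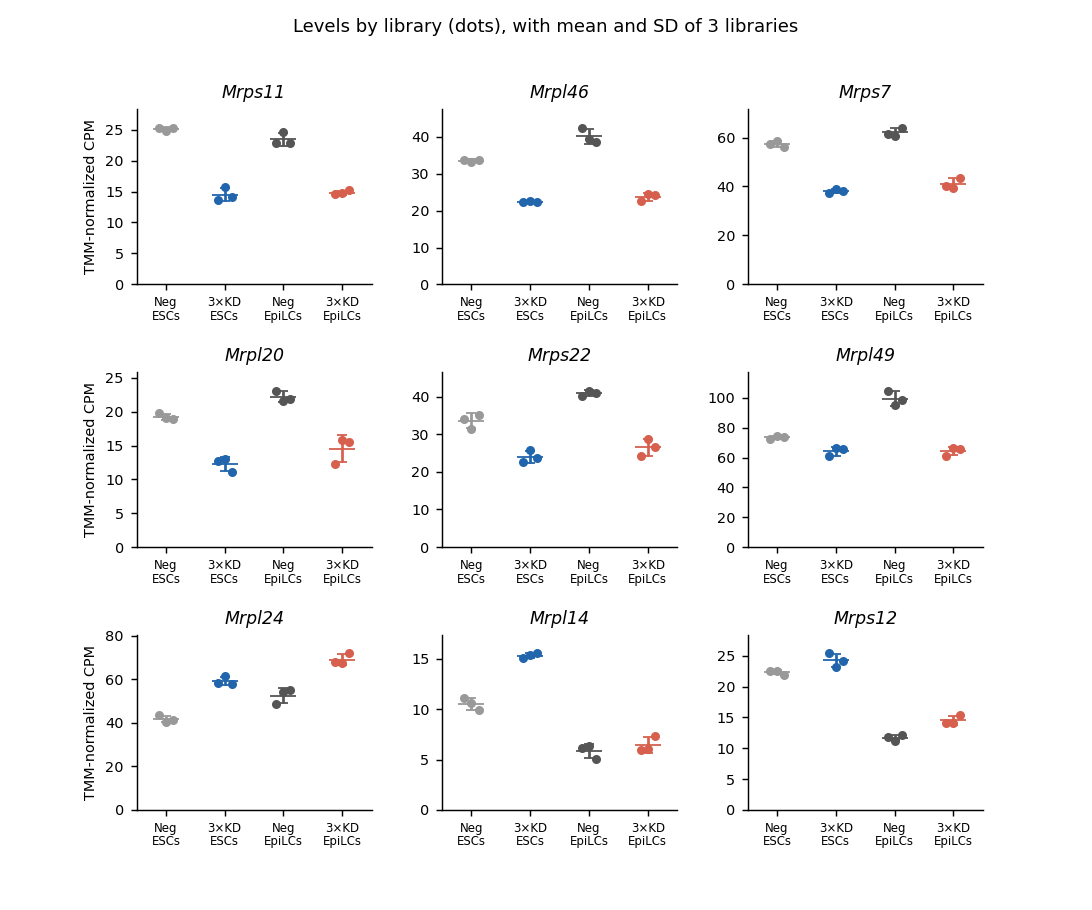
TMM-normalized CPM of 9 genes in each library (dots, with the mean and SD of 3 libraries; each axis starts at 0). Mrps11, Mrpl46, Mrps7, Mrpl20 and Mrps22 are lower in 3×KD in both states, Mrpl49 mainly in EpiLCs, Mrpl24 is higher in 3×KD in both states, and Mrpl14 and Mrps12 are lower in EpiLCs than in ESCs.

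The paralogs of the bacterial S18 protein, Mrps18a, Mrps18b and Mrps18c, hold different places in the mitoribosome. Mrps18b (mS40, small subunit) lay at 82.6 to 86.4 CPM in Neg ESCs against 65.3 to 66.3 in 3×KD ESCs (-0.36 ± 0.04), and at 99.8 to 103 against 69.3 to 75.5 in EpiLCs (-0.47 ± 0.04). Mrps18a (mL66, large subunit) lay at 22.5 to 23.9 CPM against 15.97 to 17.6 in ESCs (-0.46 ± 0.08), and at 27.9 to 34.2 against 22.5 to 23.95 in EpiLCs (-0.38 ± 0.07), and both genes fell in both states. Mrps18c (bS18m, small subunit) did not pass in either state (-0.33 ± 0.10 with edgeR adjusted p = 0.017, and -0.36 ± 0.11 with edgeR adjusted p = 0.014). In each state its value differed from those of Mrps18a and Mrps18b by less than 2 of its own SE, on 3389 counts in all against 4415 for Mrps18a and 15236 for Mrps18b.

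Mrps30 (mL65, large subunit) was at -0.04 ± 0.04 in ESCs (edgeR adjusted p = 0.54) and fell in EpiLCs (-0.31 ± 0.04, edgeR adjusted p = 8.7e-06). Mrpl12 (bL12m, in the stalk that recruits translation factors) was at -0.12 ± 0.05 and -0.28 ± 0.05, with edgeR adjusted p = 0.087 and 4.1e-04, and the difference between the states did not pass (edgeR adjusted p = 0.18). Mrpl58 (mL62, a peptidyl-tRNA hydrolase built into the large subunit) was at -0.27 ± 0.08 in ESCs and -0.33 ± 0.08 in EpiLCs (edgeR adjusted p = 0.0093 and 0.0025), calls that were lost with transcript-length offsets (-0.08 and -0.09, adjusted p = 0.83 and 0.79) and held in 7 and 15 of the 21 refits. Mrps36, the 2-oxoglutarate dehydrogenase component, did not pass in either (0.20 ± 0.10 with edgeR adjusted p = 0.14, and 0.09 ± 0.11 with 0.57). Mrpl11 (uL11m), the gene nearest to Pcx, was at -0.06 ± 0.06 in ESCs (edgeR adjusted p = 0.48) and -0.40 ± 0.06 in EpiLCs (edgeR adjusted p = 4.1e-05), and the difference of -0.34 ± 0.08 did not pass (edgeR adjusted p = 0.011). Its EpiLC value was -0.20 with transcript-length offsets (adjusted p = 0.38), and passed in the other 20 refits.

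The difference between the 3×KD effects in the 2 states was tested as an interaction, and 8 genes had a stronger fall in EpiLCs (10.3%), with none in the other direction (0 by DESeq2 too, and 0 at an unadjusted p under 0.05 in edgeR). Of all genes tested 5.27% passed in that direction and 4.76% in the other, and 8.59% and 10.2% in the CPM range. The 8 were Mrpl49, Mrpl35, Mrpl51, Mrps27, Mrps30, Mrps9, Mrpl19 and Mrpl45, with differences of -0.43 to -0.24, and the median over the 78 genes was -0.11. Mrpl49 was the only one whose adjusted p stayed under 0.01 in all 20 refits, and with transcript-length offsets it was the only one that passed (-0.60, adjusted p = 0.0071). With library sizes alone 3 passed. Without replicate 3 of Neg EpiLCs 4 passed. Mrpl35 (bL35m) was at 52.4, 57.1 and 53.6 CPM in Neg ESCs and 53.3, 51.9 and 54.3 in 3×KD ESCs, which overlap, but at 53.2, 50.2 and 49.2 in Neg EpiLCs and 38.7, 38.8 and 37.1 in 3×KD EpiLCs, which do not.

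On the exit from the naive state, Neg cells raised more of the 78 mRNAs than they lowered. Of the 78 genes 21 rose from Neg ESCs to Neg EpiLCs (26.9%) and 10 fell (12.8%), against 17.5% and 18.2% of all genes tested and 26.5% and 34.2% in the CPM range. The share that rose was thus close to that of genes of like level, and the share that fell was lower. The median was 0.04, and non-overlapping groups were seen in 29 genes upward (26.2% of all genes tested, 33% in the CPM range) and 17 downward (25.5% and 40.8%). In the large subunit 15 of 51 genes rose and 4 fell, and in the small subunit 6 of 26 rose and 5 fell. With upper-quartile factors 28 rose and 6 fell, with library size alone 20 and 13 (median 0.00), with DESeq2 20 and 6, and with transcript-length offsets 15 and 2. Over all genes tested in these fits, 12.2% to 21% rose and 10.9% to 19.3% fell. The naive and formative marker sums given above changed between the same groups.

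Mrps27 (mS27, an RNA-binding PPR protein) rose most, from 60.6, 66.4 and 62.8 CPM in Neg ESCs to 94.7, 88.3 and 101 in Neg EpiLCs (0.58 ± 0.05, edgeR adjusted p = 3.5e-08), just short of the fold limit. Mrps34 (0.49), Mrpl49 (0.44), Mrpl48 (0.41), Mrpl34 (0.40) and Mrps18a (0.39) followed. Below Mrps12 and Mrpl14, the next lowest were Mrpl36 (-0.54), Mrps36 (-0.50), Mrps21 (-0.43) and Mrps33 (-0.42), of which Mrpl36 was under the limit in every refit. Mrps12 (uS12m, at the decoding centre) was at 22.5, 22.5 and 21.9 CPM in Neg ESCs and 11.9, 11.2 and 12.1 in Neg EpiLCs (-0.93 ± 0.07, edgeR adjusted p = 7.6e-09). Mrpl14 was at 11.1, 10.6 and 9.89 CPM and then 6.16, 6.38 and 5.06 (-0.84 ± 0.11, edgeR adjusted p = 8.5e-06). These 2 fell past both limits, beside 11% of all genes tested and 16.8% in the CPM range, and their groups were far apart. The fall of Mrps12 did not pass with transcript-length offsets (-0.76, adjusted p = 0.019), and that of Mrpl14 did (-0.93, adjusted p = 2.3e-04). None rose past both limits, beside 9.78% of all genes tested, and 1 did in DESeq2. At an unadjusted p under 0.05 in edgeR 27 genes were higher and 17 lower, without a share over all genes beside them.

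In 3×KD cells the balance was the other way. Of the 78 genes 7 rose from ESCs to EpiLCs (8.97%) and 19 fell (24.4%), against 15.9% and 17.9% of all genes tested and 25% and 33.2% in the CPM range. In the CPM range, too, more genes fell than rose, and both shares of the 78 genes were below those of that range. The median was -0.06, close to the -0.05 of the CPM range, beside 0.01 for all genes tested. With upper-quartile factors the median of the 78 genes was 0.01, and 10 rose and 10 fell. The direction of the group as a whole thus depended on the scaling. DESeq2 gave 7 and 11, transcript-length offsets 4 and 8, and 12 fell without replicate 1 of 3×KD ESCs. Over all genes tested, 19.1% rose and 15.2% fell with upper-quartile factors, 16.8% and 16.1% in DESeq2, and 9.84% and 10.5% with transcript-length offsets. Groups did not overlap in 13 genes upward (25.9% of all genes tested, 32.2% in the CPM range) and 29 downward (25.7% and 41.2%). All 7 genes that rose in 3×KD (Mrps34, Mrps18a, Mrpl15, Mrps27, Mrpl17, Mrpl24 and Mrps18b) also rose in Neg, where they were 33.3% of the 21 (73.8% and 67.3% over all genes tested). Of the genes that fell in Neg 9 of 10 fell in 3×KD too (90%, and 47.4% of the 19, beside 74.3% and 75.7% over all genes tested). Pearson r over the 78 genes was 0.861 and Spearman rho 0.817, again a description.

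Mrpl14 fell most, from 15.1, 15.4 and 15.5 CPM in 3×KD ESCs to 5.96, 6.07 and 7.37 in 3×KD EpiLCs (-1.24 ± 0.11, edgeR adjusted p = 5.6e-08). Mrps12 fell from 25.4, 23.1 and 24.2 CPM to 14.1, 14.1 and 15.4 (-0.74 ± 0.07, edgeR adjusted p = 1.1e-07; 0.041 with transcript-length offsets). Mrps36 (-0.61 ± 0.105, edgeR adjusted p = 1.4e-04) and Mrps6 (-0.59 ± 0.10, edgeR adjusted p = 1.1e-04) also passed both limits, beside 9.32% of all genes tested and 14% in the CPM range. No gene rose past both limits, by edgeR or by DESeq2, beside 9.42% of all genes tested. At an unadjusted p under 0.05 in edgeR 13 were higher and 29 lower, again without a share over all genes. Mrps36 and Mrps6 fell short of the fold limit with DESeq2 and with 3 other scalings, which left Mrpl14 and Mrps12. Mrps16 lay just outside at -0.56 ± 0.10, and Mrps21 fell by 0.52 on the log2 scale. The 7 that rose did so by 0.15 to 0.47, Mrps34 (0.47), Mrps18a (0.47), Mrpl15 (0.28), Mrps27 (0.25), Mrpl17 (0.24) and Mrpl24 (0.22) most. Mrpl14 was highest in 3×KD ESCs, intermediate in Neg ESCs, and at 5.06 to 7.37 CPM in the EpiLCs of either line.

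Other genes of the 78 also start head to head with a neighbour. This count, and the pairs named, were chosen after the values had been seen. A protein-coding gene on the other strand started within 1000 bp upstream, or overlapped the start by up to 200 bp, for 20 of the 78 (25.6%), against 836 of 7771 protein-coding genes in the same CPM range (10.8%). Of the 18 partners outside the family, 7 fell and 4 rose in 3×KD ESCs and 8 fell and 4 rose in EpiLCs. Of all genes tested 16% fell and 15.6% rose in ESCs (32.2% and 26.6% in the CPM range). In EpiLCs the shares were 15.6% and 14.3% (30.6% and 26.4%). Mrps18b lies 598 bp from Ppp1r10, a regulatory subunit of protein phosphatase, which fell by far more than Mrps18b, with -1.36 ± 0.04 in ESCs and -1.38 ± 0.04 in EpiLCs. Mrpl43 shares its start region with Twnk, the mitochondrial DNA helicase, which fell by -1.19 ± 0.05 and -0.73 ± 0.04, while Mrpl43 did not pass (-0.19 ± 0.06 with edgeR adjusted p = 0.011, and -0.17 ± 0.06 with 0.022). Mrpl14 and Tmem63b start 7 bp apart, and Tmem63b rose in both states (0.42 and 0.45), Mrpl14 in ESCs.

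Mrpl49 and Fau, which encodes a protein of the cytosolic small subunit fused to a ubiquitin-like part, start 52 bp apart on chromosome 19. Fau rose in 3×KD, by 0.33 ± 0.04 in ESCs and 0.16 ± 0.04 in EpiLCs, while Mrpl49 fell in both. The fall of Mrpl49 in ESCs held in 15 of 21 refits and was lost with transcript-length offsets (-0.04, edgeR adjusted p = 0.76). Mrpl51 and Ncapd2, a condensin subunit, start 44 bp apart, and Ncapd2 rose (0.49 and 0.34) where Mrpl51 was at -0.16 and -0.52. Neighbours thus moved together in some pairs and apart in others. The stretch between Mrpl49 and Fau is shown as one whose genes moved in opposite directions in both states of the main fit. It is given from GRCm39, plus strand, chr19:6107872-6107922, with capitals for an SP1 motif.
Mrpl49-Fau: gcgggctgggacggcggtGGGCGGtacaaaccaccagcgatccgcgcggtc

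**Figure D4:**
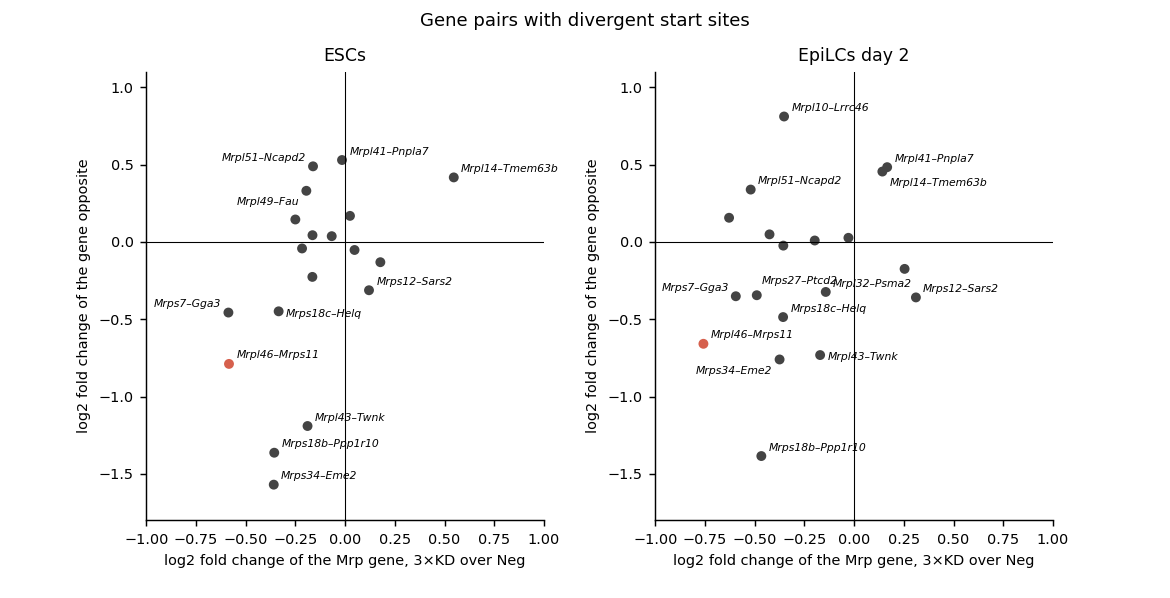
Log2 fold change in 3×KD over Neg of each Mrp gene with a divergent neighbour (x axis) and of that neighbour (y axis), in ESCs and EpiLCs day 2; the red point is the pair Mrpl46 and Mrps11, and names are given where the neighbour was beyond 0.3. Points fall in every sector of the plot around 0, with Mrps18b and Ppp1r10 both low and Mrpl51 low where Ncapd2 was high.

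Motifs were searched by their letters on both strands in the 300 bp promoter windows (250 bp before to 50 bp after the start) of all 78 genes. The ETS motif CCGGAAGT was found in 11 (14.1%), against 7.91% of the 7771 protein-coding genes in the CPM range. The SP1 motif GGGCGG was found in 33 (42.3%), against 60.9%, and the E-box CACGTG in 5 (6.41%), against 10.7%. The NRF1 motif GCGCATGC was found in 7, among them Mrpl9, Mrpl10 and Mrps18b (8.97%, against 5.78%), and the YY1 motif AAGATGGCG in Mrps11, Mrps18a, Mrpl36 and Mrpl42 (5.13%, against 2.37%). Among the 23 genes that fell in both states 3 held the ETS motif (13%), 3 the NRF1 motif (13%), 2 the YY1 motif (8.7%), 7 the SP1 motif (30.4%) and none the E-box. A match describes these letters only, and their absence says nothing about a factor.

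The 5 mitoribosome proteins without an Mrp symbol did not move as one. Ptcd3 (mS39, a PPR protein of the small subunit) was at 172, 179 and 181 CPM in Neg ESCs and 127, 121 and 128 in 3×KD ESCs, and at 239, 230 and 234 CPM in Neg EpiLCs and 150, 159 and 158 in 3×KD EpiLCs. It fell by -0.50 ± 0.04 and -0.59 ± 0.04. Dap3 (mS29, a GTP-binding protein) rose slightly in both (0.17 and 0.18). Aurkaip1 (mS38) was at -0.13 in ESCs and fell by -0.18 in EpiLCs, and Chchd1 (mS37) and Gadd45gip1 (mL64) did not pass in either state.

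Of 26 mitoribosome assembly factors 13 fell and 2 rose in 3×KD ESCs and 14 fell and 0 rose in EpiLCs, with medians of -0.27 and -0.30 (in EpiLCs DESeq2 gave 13 and 0, and 4 were higher and 16 lower at an unadjusted p under 0.05 in edgeR). Past both limits 9 were lower in ESCs and 8 in EpiLCs, beside 6.78% and 5.35% of all genes tested. Mrm3, an rRNA methyltransferase, was at 15.8, 15.8 and 16.2 CPM in Neg ESCs and 7.80, 7.26 and 6.79 in 3×KD ESCs, and fell by -1.13 ± 0.10 in ESCs and -1.03 ± 0.10 in EpiLCs. Mettl17, needed for the small subunit, fell by -1.06 ± 0.12 and -0.81 ± 0.12, and the helicase Ddx28 by -0.75 ± 0.08 and -0.91 ± 0.08. Mrm1, another rRNA methyltransferase, rose in ESCs (0.39 ± 0.06) and was at 0.19 ± 0.06 in EpiLCs. Noa1, a GTPase of small-subunit assembly, fell in ESCs (-0.69 ± 0.06) but was at -0.09 ± 0.06 in EpiLCs, and the difference of 0.60 ± 0.08 passed (edgeR adjusted p = 8.5e-05).

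Of 27 mitochondrial translation and RNA-processing factors 10 fell (37%) and 2 rose (7.41%) in ESCs (median -0.14). In EpiLCs 13 fell (48.1%) and 1 rose (3.7%, median -0.22). Taco1, a translational activator, fell by -0.68 ± 0.11 in ESCs and -0.46 ± 0.11 in EpiLCs, and Elac2, which cuts mitochondrial tRNA precursors, by -0.58 ± 0.04 and -0.75 ± 0.04. Gtpbp3, a tRNA-modifying GTPase, fell in ESCs (-0.62 ± 0.07) and was at -0.09 ± 0.07 in EpiLCs, with a difference of 0.52 ± 0.10 (edgeR adjusted p = 0.0017). Trit1, a tRNA isopentenyltransferase, rose by 0.58 ± 0.06 and 0.48 ± 0.06. Of 18 factors of mitochondrial transcription and DNA maintenance 7 fell (38.9%) and 4 rose (22.2%) in ESCs. In EpiLCs 8 fell (44.4%) and 5 rose (27.8%). Tfb2m, a transcription initiation factor, was the lowest in ESCs (-1.28 ± 0.08), and Top1mt, the mitochondrial topoisomerase, the highest in EpiLCs (0.91 ± 0.15).

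Among 11 regulators tied to mitochondrial biogenesis, 6 fell (54.5%) and 2 rose (18.2%) in ESCs and 5 fell (45.5%) and 1 rose (9.09%) in EpiLCs. Of all genes tested 16% fell and 15.6% rose in ESCs, and 15.6% and 14.3% in EpiLCs. Mycn fell by -1.05 ± 0.05 and -1.81 ± 0.05, Yy1 by -0.67 ± 0.04 and -0.62 ± 0.04, and Ppargc1b, a transcriptional coactivator, rose by 0.89 ± 0.09 and 1.02 ± 0.09. Myc was at 3.10, 4.13 and 5.71 CPM in Neg ESCs and 1.29, 0.976 and 0.849 in 3×KD ESCs (-2.10 ± 0.21), but at 0.28 ± 0.09 on the log2 scale in EpiLCs (edgeR adjusted p = 0.02), and the difference of 2.38 ± 0.23 passed (edgeR adjusted p = 1.9e-06).

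The respiratory chain subunits encoded in the nucleus, whose partners the mitoribosome makes, had other counts. Of 77 tested, 28 rose (36.4%) and 0 fell in 3×KD ESCs (median 0.18). There DESeq2 gave 26 and 0, with 46 higher and 2 lower at an unadjusted p under 0.05 in edgeR. In EpiLCs 10 rose (13%) and 4 fell (5.19%, median 0.01). Beside this list and those that follow, 15.6% of all genes tested rose and 16% fell in 3×KD ESCs. In 3×KD EpiLCs 14.3% rose and 15.6% fell, so the share of this list that rose there was near that of all genes. Ndufb4 of complex I rose by 0.61 ± 0.09 and 0.53 ± 0.09. From ESCs to EpiLCs 4 rose (5.19%) and 38 fell (49.4%) in Neg, beside 17.5% and 18.2% of all genes tested. In 3×KD 0 rose and 56 fell (72.7%), beside 15.9% and 17.9% of all genes tested (0 and 53 by DESeq2, 0 and 65 at an unadjusted p under 0.05). The medians were -0.23 and -0.37, and Cox5a and Cox6b1 of complex IV led the fall. Of 95 cytosolic ribosomal protein genes tested, 23 rose (24.2%) and 2 fell (2.11%) in 3×KD ESCs (median 0.13). In EpiLCs 16 rose (16.8%, near the 14.3% of all genes tested) and 4 fell (4.21%, median 0.06). Of the 13 mitochondrially encoded mRNAs, the templates of the mitoribosome, 2 rose (15.4%) and 3 fell (23.1%) in ESCs. In EpiLCs 3 rose (23.1%) and 0 fell (3 and 0 by DESeq2, 7 and 2 at an unadjusted p under 0.05). The difference between these lists and the 78 genes was not tested.

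**Figure D5:**
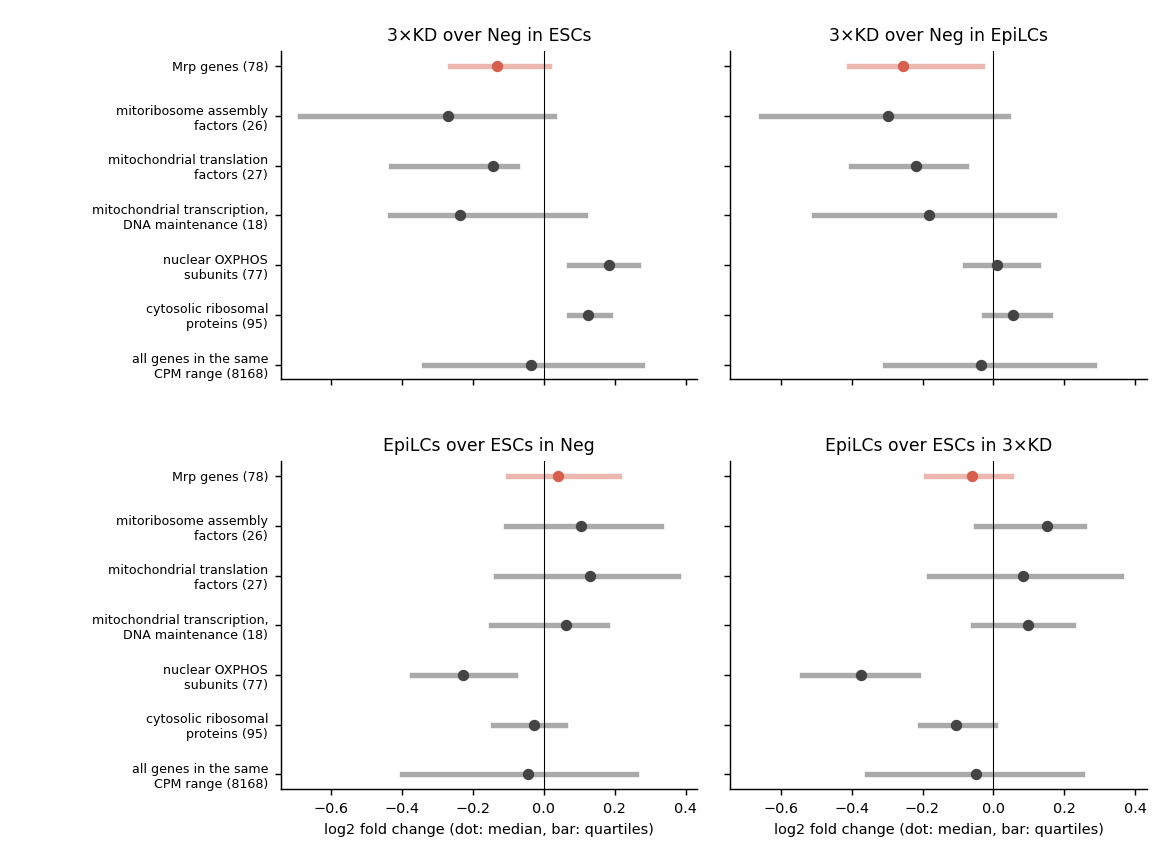
Median (dot) and quartiles (bar) of the log2 fold change in the 78 Mrp genes (red) and in related gene lists, for 3×KD over Neg in each state and EpiLCs over ESCs in each line; numbers in brackets are genes tested. The Mrp genes, assembly factors and translation factors have medians below 0 in 3×KD in both states, and the oxidative phosphorylation genes have medians below 0 in both state comparisons.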

How the data were processed

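RNA-seq libraries (rRNA-depleted, directional, single-end per the protocols; the molecule field of the labels names polyA RNA) were made from 12 samples in 4 groups of 3. Groups were taken from the sample titles, since the cell-type field gives 1 state for each line. Per the submitters' processing notes and the study's methods, the authors trimmed reads with Trim Galore 0.6.7, aligned them with STAR 2.7.9a on GRCm39 and quantified transcripts with Salmon 1.10.1, and deposited estimated counts and TPM for each transcript. Reads that fit several paralogs or pseudogenes are shared out by Salmon's model.

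For each gene the deposited estimated counts of its transcripts were added up and rounded, and likewise the deposited TPM without rounding. Genes with at least 10 counts over all libraries (25446) were fitted with edgeR 4.0.16 (TMM factors, quasi-likelihood F test, R 4.3.3), with all 12 libraries in one fit of 4 groups, and p-values were adjusted over all of them (Benjamini-Hochberg). SE is the absolute log2 fold change over the square root of F. The limits were 0.01 for the adjusted p and 0.58 for the size of the log2 fold change, the latter not used for the difference between states. Depth was 11221023 to 19652197 counts per library, and no pair of replicates agreed within sampling noise (3.06 to 20.1 as chi-square over its degrees of freedom). The 21 refits were DESeq2 1.42.0, other scalings and filters, transcript-length offsets, a replicate block, the compared groups alone and each library left out (20 for the difference, which needs all groups).

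Deviations of same-numbered libraries from their group means had correlations of -0.135 to 0.10. Differently numbered libraries were not compared, so these values cannot decide whether the numbers pair the samples. The main fit took them as unpaired. Start sites and sequences came from GENCODE and GRCm39, with 99.021% of genes matched, and positions 1-based. The fit was also run on counts simulated from its own means, library sizes, scaling factors and spread. That run could not test the choice of scaling. The 78 genes and all lists were chosen with earlier results of these data known. Named genes were the 6 with the largest change in each direction among those with an adjusted p under 0.01 in each comparison of 2 groups, the 4 largest in each direction for the difference, the 4 highest and 4 lowest by TPM, genes of particular place in the mitoribosome, the 5 subunits without an Mrp symbol, the 2 largest in each direction of each other list, the targets with the nearest gene, and genes beside the fold limit. Others, such as Mrpl37, Mrpl43, Mrps10 and the divergent neighbours, were named after their values were seen.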

Additional observations from a re-analysis of the deposited data

Results flagged for a closer look

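In 8 genes the 3×KD effect differed between the states by the interaction test in edgeR (adjusted p under 0.01), each lower in EpiLCs. These were 10.3% of the 78, beside 5.27% of all genes tested and 8.59% in the CPM range in that direction. The differences in log2 fold change, EpiLCs less ESCs, were -0.4342 for Mrpl49 (SE 0.068, adjusted p = 0.00025), -0.3801 for Mrpl35 (adjusted p = 8e-04), -0.359 for Mrpl51 (adjusted p = 0.0027) and -0.3251 for Mrps27 (adjusted p = 0.0036). The other 4 were -0.2771 for Mrps30, -0.2755 for Mrps9, -0.2636 for Mrpl19 and -0.2367 for Mrpl45. In ESCs Mrpl35, Mrps30 and Mrpl45 were at -0.03, -0.04 and 0.00, and in EpiLCs at -0.41, -0.31 and -0.23. Mrpl49 alone kept an adjusted p under 0.01 in all 20 refits.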

How the results depend on the processing

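No gene named for its change reversed in any alternative run for it. Counts past both limits depended on the settings, as did medians, and the cause was not tested except where fewer libraries or another limit were used. In 3×KD ESCs (0 higher, 4 lower, median -0.1327), transcript-length offsets gave 2 higher, upper-quartile factors 2 lower and no filter 2 lower; the medians were -0.0675 with offsets and -0.1108 with upper-quartile factors. In 3×KD EpiLCs (0, 6, -0.2554), library size alone gave 2 lower and -0.1966. From Neg ESCs to EpiLCs (0, 2, 0.0404), DESeq2, RLE and upper-quartile factors gave 1 higher, offsets 2 higher and 1 lower, and medians were 0.1227 with upper-quartile factors, 0.0934 with offsets and 0.0032 with library size alone. In 3×KD (0, 4, -0.0594), DESeq2, RLE, upper-quartile factors and library size gave 2 lower, and medians were 0.0136 with upper-quartile factors and -0.0222 with library size. For the difference between states (8 lower, -0.11), library size gave 3 and -0.0367, offsets 1.

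With an adjusted p under 0.05 and no fold limit, 9 and 33 were higher and lower in ESCs, 6 and 48 in EpiLCs, 24 and 16 between states in Neg and 9 and 25 in 3×KD. No share over all genes is given for that limit. With 0.01 and no fold limit the counts were 8 and 24, 4 and 39, 21 and 10, and 7 and 19. With a log2 limit of 1, 0 were lower in ESCs, EpiLCs, Neg and the difference, and 1 in 3×KD. The summed level in EpiLCs was 0.752 of Neg by TPM, 0.832 by CPM and 0.853 as a share of protein-coding TPM.

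Leaving out 1 library gave 0 to 2 higher and 2 to 5 lower in ESCs (median -0.1329 to -0.0998), 0 higher and 4 to 7 lower in EpiLCs (-0.2727 to -0.2273), 0 to 1 and 2 to 4 between states in Neg (0.0301 to 0.0965), 0 and 3 to 5 in 3×KD (-0.076 to -0.0434), and 4 to 10 for the difference (-0.1525 to -0.0998). With a replicate block, 4, 6, 2 and 4 were lower past both limits and 7 for the difference. The labels do not say whether the numbers pair the samples. Depth limits the shallowest gene, Mrpl41, which rests on 1459 counts in all.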
